A study of Homo sapiens with 16 samples.

Results

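Melanoma from mice that had received inhibitors on a high fat diet was compared directly with melanoma from mice that had received a ketogenic diet and no inhibitors. The groups were taken from the labels, and together they hold 8 of the study's 16 libraries. The RNA (poly-A) came from A375 MA2-Luc, an established human melanoma line of which 250000 cells were injected behind the eye of NSG mice, a strain without functional lymphocytes, and the labels describe every sample as a lung metastasis. The inhibitor group (called inhibitor libraries here) was on a high fat diet and received BRAF kinase and MEK1/2 inhibitors by oral gavage, 3 times a week for 5 weeks. The ketogenic group (ketogenic libraries) was on a ketogenic diet without inhibitors, and no gavage schedule is given for it. The other groups had the ketogenic diet with the inhibitors (both interventions) or the high fat diet without them (neither intervention), and every group had 4 libraries. The labels name the inhibitors by their targets only and give no drug names, doses or diet composition. The series' design text also mentions culture of the line and biological replicates, so it is unsettled whether cells were grown in culture before extraction. The labels do not say that each replicate came from its own mouse, and p-values refer only to the spread among these libraries, which may be technical.

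BRAF and MEK1/2 are consecutive kinases of the MAPK pathway, which carries growth signals to the nucleus and in A375 is driven by a mutant BRAF. ERK, the kinase below MEK, induces its own brakes, the DUSP phosphatases and the Sprouty and SPRED proteins, so their transcripts are commonly read as pathway output. A ketogenic diet is low in carbohydrate and makes the liver release ketone bodies, which other tissues oxidise through the enzyme encoded by OXCT1.

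Diet and inhibitors differed together between the groups, and so did gavage as far as the labels tell. A difference between inhibitor and ketogenic libraries may come from either intervention, and these cannot be told apart in it. Melanoma identity genes were present in both groups. SOX10, a transcription factor of the melanocyte lineage, lay between 736 and 846 CPM in inhibitor libraries and between 776 and 934 CPM in ketogenic libraries (CPM, counts relative to the scaled library size). MITF, the lineage's master regulator, lay between 101 and 141 CPM in inhibitor libraries and between 99.2 and 110 CPM in ketogenic libraries. The pigment markers MLANA and TYR were near 0 in all 8 libraries, with at most 0.418 and 0.922 CPM. Depth was 52.0 to 59.2 M estimated counts (M, mega) in inhibitor libraries and 38.6 to 77.3 M in ketogenic libraries. Ribosomal RNA took 17.3% ± 2.20 of the counts in inhibitor libraries and 23.7% ± 7.97 in ketogenic libraries (SD, n = 4 each; two-sided exact permutation p = 0.171, where 0.0286 is the smallest that 70 assignments can give). Inhibitor library 1 stood apart, with 16648 genes with a count against 18089 to 18245 in the other inhibitor libraries. It and ketogenic library 4 were the libraries of their groups least like the opposite group.

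Of 16012 genes tested, 2139 (13.4%) passed an adjusted p of 0.05 in edgeR's quasi-likelihood test, which gives all adjusted p-values below. Of these, 1032 (6.45%) were higher in inhibitor libraries and 1107 (6.91%) were lower, and 529 (3.3%) differed by more than 2-fold. These shares are the scale for every count of called genes in the lists below. Lower genes differed by more, with a median absolute log2 fold change of 0.75 (median SE 0.19) against 0.51 (median SE 0.12) for higher genes, and 368 of the genes beyond 2-fold were lower. Scaled by library size alone, 515 genes were higher and 266 lower, so that 65.9% of the calls were higher against 48.3% here. The libraries of the groups did not overlap for 4381 genes (27.4%). For 7283 genes (45.5%) the 95% interval of the difference lay wholly within 1.5-fold. Without ketogenic library 4 the counts were 480 higher and 489 lower, and of 89 called genes that were followed one by one, 32 lost their call in at least 1 of the 8 fits that left out a library. Log2 fold changes are inhibitor minus ketogenic, with their SE, over 4 libraries per group, and tests are two-sided.

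Among called genes whose groups did not overlap and whose higher group averaged at least 5 CPM, the largest log2 rise in inhibitor libraries was that of FGL2, a secreted fibrinogen-like protein (chromosome 7, 77193371 to 77199848, minus strand, lying within CCDC146 on the opposite strand). It had 92.8, 38.3, 90.1 and 103 CPM in inhibitor libraries 1 to 4, against 1.58, 0.260, 4.95 and 2.11 CPM in ketogenic libraries 1 to 4. The lowest inhibitor library, the second, was well above the highest ketogenic one, and the log2 fold change was 5.21 (SE 0.62, adjusted p = 0.000359). FMOD, fibromodulin, a collagen-binding proteoglycan (chromosome 1, 203340628 to 203351758), had 7.95, 4.57, 4.79 and 4.21 CPM in inhibitor libraries, against 0.278, 0.0306, 0.370 and 0.315 CPM in ketogenic libraries (log2 4.46, SE 0.44, adjusted p = 6.89e-05). All 4 inhibitor libraries stood above the ketogenic ones, and the first was the highest. ESM1, endocan, a secreted proteoglycan (chromosome 5, 54977864 to 55022671), had 8.08, 13.1, 17.9 and 9.47 CPM in inhibitor libraries, against 0.897, 1.65, 1.44 and 1.87 CPM in ketogenic libraries (log2 3.05, SE 0.58, adjusted p = 0.00442). Its groups did not overlap either. Exons of ESM1 overlap those of AC034238.1 on the same strand, and their reads may not be told apart.

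TTR, transthyretin, the carrier of thyroid hormone and retinol (chromosome 18, 31557010 to 31599021), had 57.5, 24.0, 54.8 and 35.1 CPM in inhibitor libraries, against 1.64, 1.51, 3.33 and 3.98 CPM in ketogenic libraries (log2 4.05, SE 0.51, adjusted p = 0.000452). The groups were separated by a wide gap. TTR belongs to the list of plasma and red cell genes, whose summed level was 35.9 to 73.9 CPM in inhibitor libraries and 13.1 to 17.7 CPM in ketogenic libraries. This sum counts TTR itself, which made up most of it in inhibitor libraries, so it is no separate rise. TTR was the 1 of 7 tested members that rose in edgeR, and 0 fell (1 and 0 in DESeq2). Limma voom called 2 higher and 1 lower, among TTR, APOA1 and SERPINA1. In edgeR 6 of the 7 had a positive value, and 3 had an unadjusted p under 0.05, which 29% of all genes reached. The list's median was 1.21, or 0.33 without inhibitor library 1. APOA1, the main protein of high-density lipoprotein, did not pass in edgeR but did not overlap, with 0.764, 0.795, 0.335 and 0.325 CPM in inhibitor libraries, against 0.294, 0.0306, 0.195 and 0.170 CPM in ketogenic libraries (log2 1.67, SE 0.70, adjusted p = 0.125). Of the defining markers, ALB had 0.0814 to 2.00 CPM in inhibitor libraries and 0.0773 to 0.194 CPM in ketogenic libraries, and HBB stayed below 0.3 CPM in all 8. AHSP, a haemoglobin chaperone of red cells, was at 0 in all 8 libraries. The part of blood or liver RNA in the rise of TTR was not tested.

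TAC1, the precursor of substance P, had 11.3, 12.2, 23.7 and 27.0 CPM in inhibitor libraries, against 3.22, 2.17, 3.74 and 1.65 CPM in ketogenic libraries (log2 2.78, SE 0.68, adjusted p = 0.0180). The inhibitor libraries were all higher, but the call was lost without inhibitor library 4 and without ketogenic library 4, where the adjusted p was 0.0638. IL1B, the inflammatory cytokine interleukin-1 beta, had 69.1, 48.1, 25.4 and 28.2 CPM in inhibitor libraries, against 5.72, 2.66, 14.3 and 6.28 CPM in ketogenic libraries (log2 2.56, SE 0.62, adjusted p = 0.0164). The groups did not overlap, and this call was lost without ketogenic library 1 and without ketogenic library 4 (adjusted p = 0.0561). With libraries scaled by size alone, neither gene passed. With IL1B included, 16 of the 17 tested members of the inflammatory and NF-kB list had a positive value. The list's median was 0.50, against -0.01 over all genes tested. IL1B was the 1 that passed in edgeR and 0 passed lower (3 and 0 in DESeq2, 4 and 0 in limma voom). At an unadjusted p under 0.05, which 29% of all genes reached, 7 were higher and 0 lower.

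FGL2 and IL1B are also known from macrophages, so leukocyte and macrophage markers are given beside them. Macrophage and neutrophil genes summed to 50.7 to 68.5 CPM in inhibitor libraries and 55.4 to 90.9 CPM in ketogenic libraries, with 0 of 8 tested members called in edgeR (0 at an unadjusted p under 0.05, 0 in DESeq2 and 1, CD68, in limma voom). The list's median was 0.21, with 6 of 8 positive. CD68, a lysosomal protein, made up most of the sum, with 42.1, 34.3, 28.7 and 32.5 CPM in inhibitor libraries, against 42.4, 35.9, 38.6 and 68.7 CPM in ketogenic libraries (log2 -0.43, SE 0.21, adjusted p = 0.187). Its groups overlapped, and ketogenic library 4 was the highest. CD14 had 0.182 to 0.592 CPM in inhibitor libraries and 0.0612 to 0.267 CPM in ketogenic libraries, and CSF1R stayed below 0.41 CPM in all 8. Leukocyte genes summed to 13.7 to 21.8 CPM in inhibitor libraries and 14.8 to 20.9 CPM in ketogenic libraries. Of 8 tested leukocyte genes, LCP1, an actin bundler, rose and 0 fell in edgeR with all libraries. DESeq2 called 2 higher and 1 lower, limma voom 2 and 2, and edgeR with only the 8 libraries 1 and 1. LCP1 had 3.29, 1.39, 1.66 and 1.24 CPM in inhibitor libraries, against 0.480, 0.367, 0.292 and 0.194 CPM in ketogenic libraries (log2 2.48, SE 0.45, adjusted p = 0.00301). PTPRC, the pan-leukocyte surface marker, had 0.112 to 0.691 CPM in inhibitor libraries and 0 to 0.145 CPM in ketogenic libraries. It passed in DESeq2 and in limma voom, and not in edgeR. Fewer cells of a type and less RNA per cell cannot be told apart in such bulk RNA, and the part of immune cells was not tested. Host cells of these tumours are mouse cells, while the counts are of human gene symbols. In every cell type list here, a low level therefore does not show that host cells were few.

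The other genes at the upper end were EFS, a docking protein of the CAS family, DNASE2B, an acid endonuclease, and EVI2A, a membrane protein. EFS had 8.37, 4.99, 3.86 and 5.24 CPM in inhibitor libraries, against 0.882, 0.0612, 1.89 and 0.873 CPM in ketogenic libraries (log2 2.61, SE 0.58, adjusted p = 0.00982). DNASE2B had 7.07, 4.08, 6.59 and 5.24 CPM in inhibitor libraries, against 0.572, 0.643, 1.42 and 1.16 CPM in ketogenic libraries (log2 2.61, SE 0.33, adjusted p = 0.000307). EVI2A had 13.6, 10.1, 19.6 and 12.1 CPM in inhibitor libraries, against 3.71, 2.08, 2.36 and 2.47 CPM in ketogenic libraries (log2 2.38, SE 0.26, adjusted p = 0.00011). In EFS, DNASE2B and EVI2A alike, every inhibitor library was above every ketogenic one. EVI2A lies within NF1 on the opposite strand and shares annotated exon sequence with it; the strand setting of the counting is not given, so their reads may not be told apart.

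**Figure D1:**
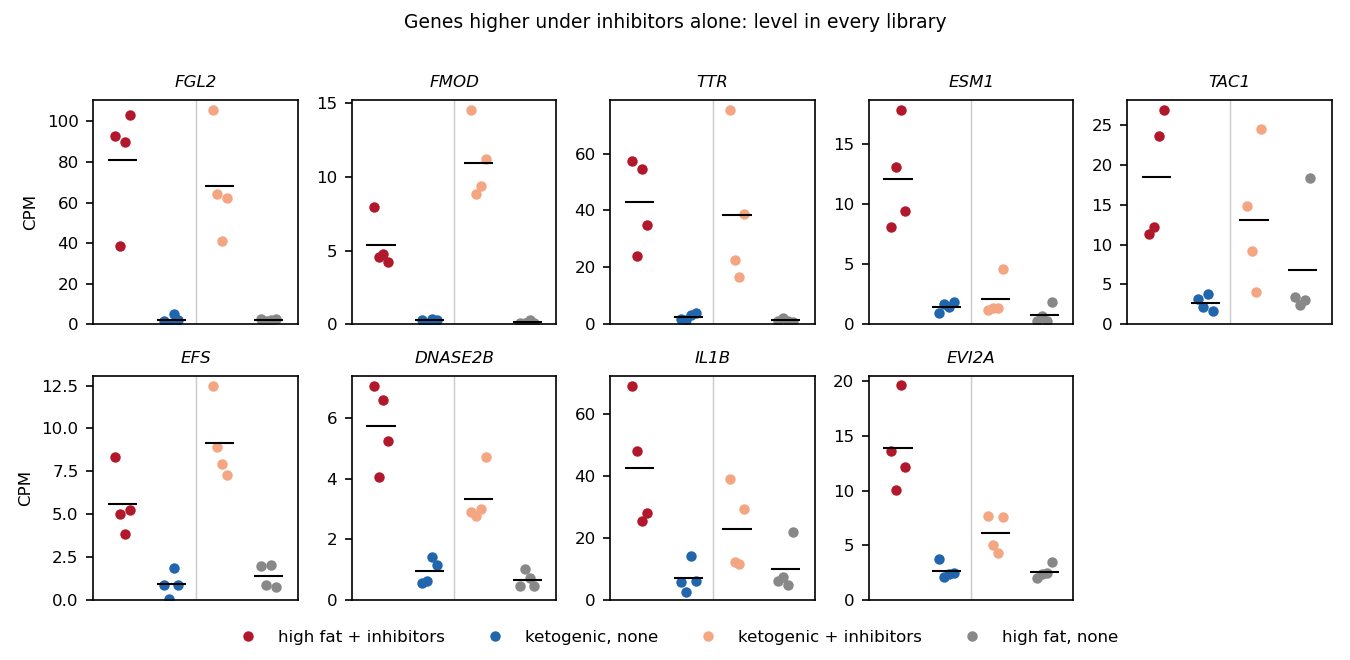
Level in CPM (linear axes from 0, a scale of its own in each panel) of 9 genes that were higher in inhibitor libraries. Points are libraries, bars are means of 4, and the libraries with both interventions and with neither stand right of the grey line; for every gene shown the lowest inhibitor library lies above the highest ketogenic one.

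By the same rule on overlap and level, the largest fall in inhibitor libraries was that of LDB2. LDB2, a cofactor that binds LIM-domain proteins (chromosome 4, 16501541 to 16898809), had 1.44, 0.795, 0.239 and 0.342 CPM in inhibitor libraries, against 8.37, 13.1, 9.25 and 21.1 CPM in ketogenic libraries. Every inhibitor library was far below every ketogenic one, and the log2 fold change was -4.21 (SE 0.56, adjusted p = 0.000593). NPTX2, a neuronal pentraxin that acts at synapses, had 0.564, 1.73, 0.750 and 1.33 CPM in inhibitor libraries, against 7.66, 13.1, 6.90 and 4.95 CPM in ketogenic libraries (log2 -2.90, SE 0.56, adjusted p = 0.00457). VGF, the precursor of neuroendocrine peptides (chromosome 7, 101162509 to 101165593, minus strand), had 25.7, 26.7, 20.3 and 16.7 CPM in inhibitor libraries, against 79.3, 101, 136 and 83.5 CPM in ketogenic libraries (log2 -2.16, SE 0.43, adjusted p = 0.00618). Neither NPTX2 nor VGF overlapped between the groups. The neural adhesion molecules NRCAM and CNTN1 were lower as well. NRCAM had 2.29, 1.84, 1.99 and 1.55 CPM in inhibitor libraries, against 8.27, 11.5, 8.26 and 8.61 CPM in ketogenic libraries (log2 -2.25, SE 0.31, adjusted p = 0.000522). CNTN1 had 2.07, 2.62, 1.01 and 1.12 CPM in inhibitor libraries, against 5.18, 10.2, 4.93 and 8.61 CPM in ketogenic libraries (log2 -2.08, SE 0.45, adjusted p = 0.00852).

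Among the rest of the lowest genes, DNAH9, a dynein heavy chain of cilia, had 5.42, 5.12, 3.19 and 3.63 CPM in inhibitor libraries, against 21.4, 19.8, 22.1 and 36.2 CPM in ketogenic libraries (log2 -2.52, SE 0.27, adjusted p = 0.00011). MOXD1, a copper-dependent monooxygenase of the dopamine beta-hydroxylase family, had 5.88, 9.18, 3.88 and 4.33 CPM in inhibitor libraries, against 26.3, 28.6, 32.5 and 32.9 CPM in ketogenic libraries (log2 -2.37, SE 0.27, adjusted p = 0.000195). Both were clearly separated by group. TRABD2B, a metalloprotease that inactivates Wnt ligands, averaged 1.90 ± 0.515 CPM in inhibitor libraries and 8.66 ± 3.22 CPM in ketogenic libraries (SD, n = 4 each; log2 -2.19, SE 0.31, adjusted p = 0.000642). GPR153, an orphan receptor, had 56.2, 52.2, 33.0 and 30.1 CPM in inhibitor libraries, against 151, 147, 146 and 284 CPM in ketogenic libraries (log2 -2.08, SE 0.33, adjusted p = 0.0017). Ketogenic library 4 was the highest in DNAH9 and GPR153, and the other ketogenic libraries were close together. CYP24A1, the enzyme that inactivates vitamin D, had 1.31, 0.558, 0.926 and 0.683 CPM in inhibitor libraries, against 1.59, 12.7, 2.14 and 3.76 CPM in ketogenic libraries (log2 -2.54, SE 0.73, adjusted p = 0.0325). It rested much on ketogenic library 2, without which the adjusted p was 0.128, and the call was also lost without inhibitor library 2, 3 or 4 or ketogenic library 4, with library size alone, with ribosomal RNA share in the model and with no low-count filter. Exons of DNAH9, LDB2 and TRABD2B overlap those of non-coding genes, AC005209.1, AC097515.1 and AL691459.1.

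**Figure D2:**
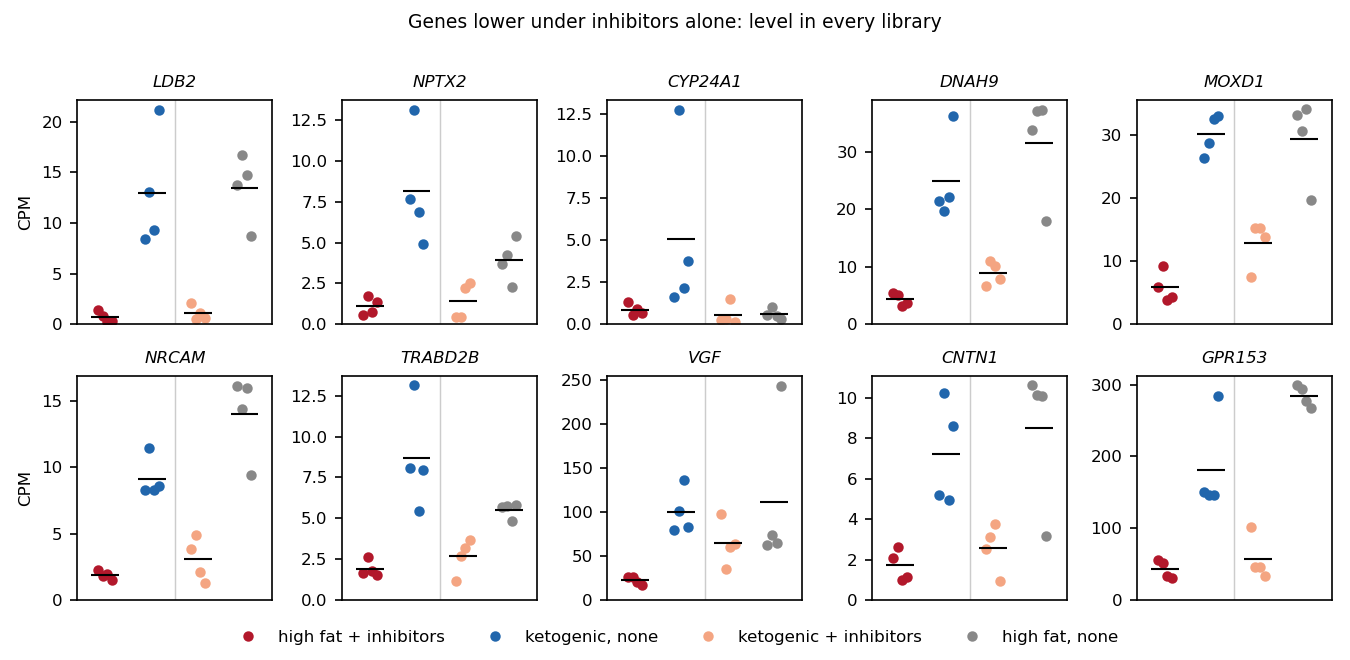
Level in CPM (linear axes from 0, a scale of its own in each panel) of the 10 genes that were lowest in inhibitor libraries against ketogenic ones by the rule. Points are libraries, bars are means of 4, and the libraries with both interventions and with neither stand right of the grey line; the groups do not overlap, and ketogenic library 2 stands alone in CYP24A1 at 12.7 CPM.

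The promoters of FGL2, the gene with the largest rise by that rule, and VGF, a lower gene known in neurons for its cyclic AMP response element, are shown from RefSeq (GRCh38.p14). Each runs from 250 bases before to 50 bases after the gene's start, 5′ to 3′ on the gene's own strand. Capitals mark matches, on either strand, to the AP-1 motif TGANTCA, to the cyclic AMP response element TGACGTCA, to the E-box CACGTG and to the TATA box TATAAA, which appears as TTTATA where it matches on the other strand. The window of FGL2 is chr7:77199770-77200069 and that of VGF chr7:101165520-101165819, both on the minus strand. The starts used for these windows are not identical with the GENCODE gene ends given above, and motif distances refer to the windows' starts.
FGL2: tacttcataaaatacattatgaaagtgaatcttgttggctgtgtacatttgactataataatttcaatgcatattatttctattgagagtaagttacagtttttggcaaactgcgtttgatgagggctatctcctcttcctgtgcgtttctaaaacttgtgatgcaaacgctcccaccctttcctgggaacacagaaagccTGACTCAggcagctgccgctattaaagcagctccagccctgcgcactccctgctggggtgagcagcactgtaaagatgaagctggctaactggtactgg
VGF: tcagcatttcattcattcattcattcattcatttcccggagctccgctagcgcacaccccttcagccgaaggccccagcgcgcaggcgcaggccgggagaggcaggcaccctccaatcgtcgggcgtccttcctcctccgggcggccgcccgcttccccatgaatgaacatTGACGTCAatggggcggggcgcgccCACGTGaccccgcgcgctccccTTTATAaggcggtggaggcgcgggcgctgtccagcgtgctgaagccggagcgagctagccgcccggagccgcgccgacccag
The AP-1 match of FGL2 begins 49 bases before the start. In VGF the response element begins 79, the E-box 54 and the TATA box 32 bases before it. Of the promoters of all tested genes in the table, 11463 in number, 4.99% held the AP-1 letters, 3.03% the response element, 9.83% the E-box and 6.12% the TATA box. The AP-1 letters stood in 5.66% of 795 promoters of genes that were higher and in 4.34% of 807 promoters of genes that were lower. For the response element the shares were 3.40% and 3.35%. A match describes these letters and is not a shown binding site.

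Genes of cell division were compared as 2 lists. Of 20 S phase genes 1 rose and 0 fell in edgeR with all libraries. DESeq2 called 2 higher and 0 lower, limma voom 3 and 0, and edgeR with only the 8 libraries 2 and 1. With library size alone or with ribosomal RNA share in the model 0 passed. The list's median log2 fold change was 0.17. That median ran from 0.033 without ketogenic library 4 to 0.28 without ketogenic library 1. The S phase genes summed to 991 CPM in ketogenic library 4, against 1478 to 1784 CPM in the other ketogenic libraries. Of 20 genes of G2 and mitosis 0 rose and 0 fell in edgeR with all libraries in the model (0 also at an unadjusted p under 0.05, in DESeq2 and in limma voom), with a median of -0.11. With only the 8 libraries in the model, 3 passed as lower, TOP2A, BUB1B and BUB1, and 0 as higher. TOP2A, a topoisomerase of dividing cells, did not overlap, with 268, 314, 283 and 328 CPM in inhibitor libraries, against 415, 423, 380 and 372 CPM in ketogenic libraries (log2 -0.42, SE 0.47, adjusted p = 0.598 with all libraries). CCNE1, cyclin E1, which starts S phase, had 17.9, 18.2, 16.4 and 15.9 CPM in inhibitor libraries, against 14.1, 13.9, 13.7 and 10.9 CPM in ketogenic libraries (log2 0.38, SE 0.12, adjusted p = 0.0454). It did not overlap, but its call was lost in each of the 8 fits that left out 1 library, with an adjusted p of up to 0.150 without ketogenic library 4. CCNE2, cyclin E2, had 18.6, 25.4, 21.1 and 24.3 CPM in inhibitor libraries, against 14.3, 16.3, 12.55 and 6.43 CPM in ketogenic libraries. It did not overlap and did not pass in edgeR with all libraries (log2 0.845, SE 0.29, adjusted p = 0.0650). DESeq2, limma voom and edgeR with only the 8 libraries called it. Exons of CCNE2 overlap those of INTS8 on the opposite strand. MKI67, the Ki-67 proliferation antigen, had 259, 282, 223 and 298 CPM in inhibitor libraries, against 325, 361, 264 and 230 CPM in ketogenic libraries (log2 -0.15, SE 0.52, adjusted p = 0.881). These groups overlapped, and the 95% interval of the difference, -1.27 to 0.97, leaves room for a more than 2-fold change either way. CDK1, the mitotic kinase, averaged 100.3 ± 18.6 CPM in inhibitor libraries and 98.6 ± 14.8 CPM in ketogenic libraries (SD, n = 4 each), with an interval of -0.65 to 0.70. The interval lay within 1.5-fold for 7 of the S phase genes and for 0 of the mitotic ones. These intervals use a spread estimated from all 16 libraries. For TOP2A the SD was 27.7 CPM in inhibitor libraries and 25.1 CPM in ketogenic libraries, against 122.5 CPM with neither intervention and 136.9 CPM with both (n = 4 each). With that spread, a difference of more than 1.5-fold is not excluded by the interval of any mitotic gene.

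Set against the libraries with neither intervention, which both comparisons share, 19 S phase genes rose in inhibitor libraries and 18 in ketogenic libraries, with medians of 1.30 and 1.25. Without library 4 of those with neither, 19 and 17 passed. Mitotic genes rested more on single libraries. They had medians of 0.89 in inhibitor libraries and 1.01 in ketogenic libraries, with 8 and 5 higher, against medians of 0.58 and 0.69, with 10 and 11 higher, without library 4 with neither. Without library 3 with neither, 6 were higher in inhibitor libraries and 0 in ketogenic libraries. Library 4 with neither had 16.6 CPM of MKI67, and the other 3 had 139 to 186 CPM. For scale, 20.6% of all genes were higher and 21.7% lower in inhibitor libraries than with neither, and 7.99% were higher and 5.51% lower in ketogenic libraries. E2F1, a transcription factor of S phase entry, had log2 1.74 in inhibitor libraries (adjusted p = 4.86e-05) and 1.69 in ketogenic libraries (adjusted p = 0.00171) against neither. Directly compared, it had 37.4, 46.6, 32.5 and 36.2 CPM in inhibitor libraries, against 46.6, 45.6, 32.2 and 22.1 CPM in ketogenic libraries (log2 0.06, SE 0.21). The groups overlapped.

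Of 24 ribosomal protein genes 0 passed (0 also at an unadjusted p under 0.05, in DESeq2 and in limma voom), the median was -0.07, and all 24 intervals lay within 1.5-fold, against 45.5% of all genes. RPS2, of the small subunit, had 1777, 1716, 1716 and 1404 CPM in inhibitor libraries, against 1939, 1765, 1847 and 2282 CPM in ketogenic libraries (log2 -0.24, SE 0.15, adjusted p = 0.284). With only the 8 libraries in the model, 0 of the 24 passed as well. The 15 host genes of small nucleolar RNAs, which guide ribosomal RNA modification, had a median of -0.22, with 1 higher and 1 lower, and the lower one, TAF1D, was lost in 4 of the 8 fits without 1 library. That median ran from -0.33 without inhibitor library 3 to -0.029 without ketogenic library 4, in which these genes summed to 1236 CPM, against 781 to 931 CPM in the other ketogenic libraries. Among these GAS5 averaged 128 CPM in inhibitor libraries and 176 CPM in ketogenic libraries (log2 -0.46, SE 0.43, adjusted p = 0.516). Against the libraries with neither, GAS5 was at -2.15 in inhibitor libraries (adjusted p = 0.00193) and at -1.69 in ketogenic libraries (adjusted p = 0.0233). Without library 4 with neither, which had 1156 CPM of GAS5 where the other 3 had 315 to 406 CPM, these were -1.54 (adjusted p = 0.00323) and -1.08, which did not pass (adjusted p = 0.0544). Of the HLA class I genes, which present antigen, and their helpers, 0 of 14 passed in edgeR (2 at an unadjusted p under 0.05, 1 in DESeq2 and 2 in limma voom), and 12 intervals lay within 1.5-fold.

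**Figure D3:**
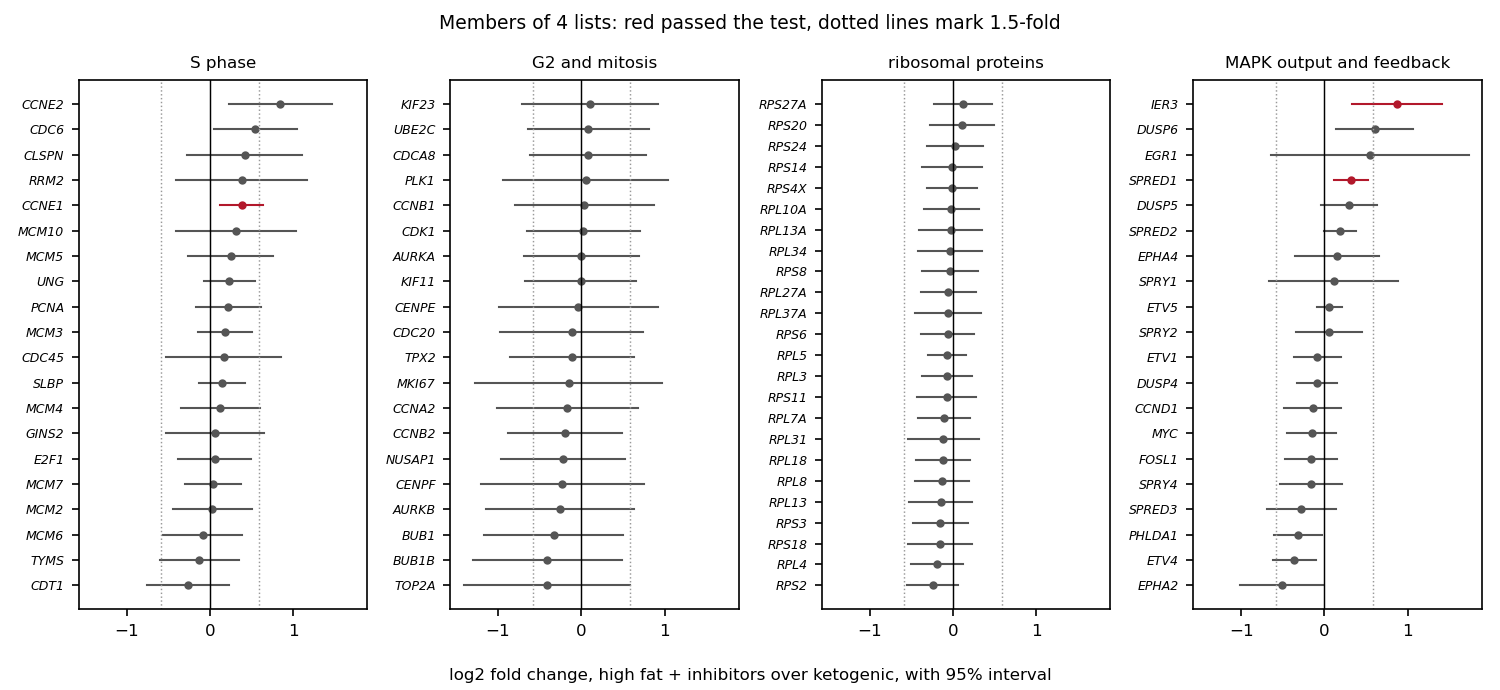
Log2 fold change of inhibitor over ketogenic libraries with its 95% interval for every tested gene of 4 lists. Red genes passed an adjusted p of 0.05 and dotted lines mark 1.5-fold. With the spread estimated from all 16 libraries, all 24 ribosomal protein intervals lie between the dotted lines, and none of the 20 mitotic ones does.

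The targets of the inhibitors and their pathway were read next. BRAF had 13.8, 12.4, 12.2 and 10.9 CPM in inhibitor libraries, against 16.3, 16.4, 16.4 and 17.1 CPM in ketogenic libraries (log2 -0.43, SE 0.11, adjusted p = 0.0232). Exons of BRAF overlap those of NDUFB2 on the opposite strand. All inhibitor libraries were lower, and the call was lost in 5 of the 8 fits without 1 library, with an adjusted p of up to 0.0824 without inhibitor library 4. MAP2K1 and MAP2K2, which encode MEK1 and MEK2, did not pass. MAP2K1 averaged 64.0 CPM in inhibitor libraries and 60.8 CPM in ketogenic libraries (95% interval -0.11 to 0.26). MAP2K2 averaged 140 CPM in inhibitor libraries and 143 CPM in ketogenic libraries (95% interval -0.27 to 0.21). BRAF was the 1 of 13 genes of the MAPK core that fell in edgeR, and 0 rose. At an unadjusted p under 0.05, which 29% of all genes reached, 1 was higher and 3 were lower. DESeq2 called 1 higher and 2 lower, limma voom 2 higher and 3 lower, and edgeR without ketogenic library 2 called 1 higher.

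Of 20 genes of MAPK output and feedback, SPRED1 and IER3 rose and 0 fell in edgeR with all libraries, and the median was -0.02. DESeq2 called 3 higher and 1 lower, limma voom 4 and 3, and edgeR with only the 8 libraries 4 and 2. With library size alone or with ribosomal RNA share in the model 0 passed. IER3, an early gene that prolongs ERK activity, had 461, 401, 309 and 307 CPM in inhibitor libraries, against 211, 176, 190 and 231 CPM in ketogenic libraries (log2 0.87, SE 0.26, adjusted p = 0.0347). SPRED1, an inhibitor of RAS activation, had 105, 113, 107 and 104 CPM in inhibitor libraries, against 89.7, 72.6, 102 and 79.7 CPM in ketogenic libraries (log2 0.32, SE 0.09, adjusted p = 0.0346). Neither overlapped, but the call of IER3 was lost in all 8 and that of SPRED1 in 7 of the 8 fits without 1 library, with adjusted p up to 0.0874 without inhibitor library 1 and up to 0.108 without ketogenic library 4. DUSP6, the phosphatase of ERK and a common readout of the pathway, did not pass in edgeR with all libraries. It passed in DESeq2, in limma voom and in edgeR with only the 8 libraries. It had 510.1, 457, 448 and 449 CPM in inhibitor libraries, against 291, 306, 345 and 287 CPM in ketogenic libraries (log2 0.60, SE 0.22, adjusted p = 0.0771). All inhibitor libraries were above all ketogenic ones, and the interval ran from 0.14 to 1.06. ETV4, a transcription factor induced by ERK, had the opposite sign, with 119, 133, 126 and 130 CPM in inhibitor libraries, against 151, 172, 151 and 179 CPM in ketogenic libraries (log2 -0.36, SE 0.12, adjusted p = 0.0576). Like DUSP6, it passed in DESeq2, in limma voom and in edgeR with only the 8 libraries. SPRY2, a Sprouty feedback inhibitor, was at 0.05 (95% interval -0.35 to 0.45), SPRY4 at -0.16 (-0.53 to 0.21), ETV5 at 0.06 (-0.09 to 0.21) and CCND1, cyclin D1, at -0.14 (-0.48 to 0.20). Apart from ETV4 and DUSP6, the groups of these genes overlapped.

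AP-1, a transcription factor of JUN and FOS proteins, and other immediate early genes formed a list of 19. Of these NR4A2, JUN, DUSP1 and IER3 rose and 0 fell, and the median was 0.41. An unadjusted p under 0.05, which 29% of all genes reached, was found for 7 of the 19. JUN had 53.3, 48.6, 55.4 and 55.9 CPM in inhibitor libraries, against 16.9, 13.3, 16.5 and 7.69 CPM in ketogenic libraries (log2 1.97, SE 0.32, adjusted p = 0.00195). NR4A2, an inducible orphan nuclear receptor, had 98.1, 74.9, 82.9 and 79.4 CPM in inhibitor libraries, against 35.2, 25.4, 37.9 and 39.0 CPM in ketogenic libraries (log2 1.29, SE 0.17, adjusted p = 0.000382). The inhibitor libraries were alike among themselves in both genes and far above the ketogenic ones. DUSP1, a phosphatase of JNK and p38, averaged 21.2 CPM in inhibitor libraries and 12.5 CPM in ketogenic libraries (log2 0.77, SE 0.17, adjusted p = 0.00829).

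Among the tested receptor kinases and their ligands, 24 in number, 2 were higher and 2 lower (13.4% of all genes passed in either direction). KDR, a receptor of vascular endothelial growth factors, had 75.9, 70.3, 72.9 and 81.3 CPM in inhibitor libraries, against 25.0, 36.3, 30.2 and 32.3 CPM in ketogenic libraries (log2 1.28, SE 0.23, adjusted p = 0.00302). NRG1, a ligand of ERBB3 and ERBB4, was low, with 0.582, 0.558, 0.335 and 0.586 CPM in inhibitor libraries, against 0.0619, 0.0612, 0.117 and 0 CPM in ketogenic libraries (log2 3.02, SE 0.71, adjusted p = 0.0124). KDR is also an endothelial marker, and the endothelial list summed to 180 to 203 CPM in inhibitor libraries and 155 to 170 CPM in ketogenic libraries. That sum counts KDR itself, so its difference is not separate from that of KDR. The list's median was 0.11, with 6 of 10 tested members positive. KDR was the 1 of its 10 tested members that rose, and 0 fell, in edgeR with all libraries. DESeq2 and limma voom each called KDR higher and EGFL7 lower. With only the 8 libraries KDR was higher, and EGFL7 and ENG, the most abundant member, were lower. CDH5 was at most 0.0677 CPM in inhibitor libraries and at 0 in ketogenic libraries. PECAM1 had 0.439 to 1.04 CPM in inhibitor libraries and 0.627 to 1.02 CPM in ketogenic libraries. HGF, the ligand of the MET receptor, fell, with 4.20, 3.94, 3.73 and 4.43 CPM in inhibitor libraries, against 9.76, 8.32, 11.1 and 11.7 CPM in ketogenic libraries (log2 -1.33, SE 0.20, adjusted p = 0.000789). VEGFC, a lymphatic growth factor, had 0.546, 1.91, 1.21 and 1.14 CPM in inhibitor libraries, against 2.41, 4.53, 2.51 and 4.92 CPM in ketogenic libraries (log2 -1.57, SE 0.37, adjusted p = 0.011). In KDR, HGF, NRG1 and VEGFC alike, the groups did not overlap.

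Of 12 genes of the insulin-like growth factor axis, IRS2 rose and IGFBP4, IRS1 and IGFBP5 fell (6.45% and 6.91% over all genes). IRS2, an adaptor of the insulin receptor, had 264, 300.4, 259 and 255 CPM in inhibitor libraries, against 220, 190, 212 and 209 CPM in ketogenic libraries (log2 0.38, SE 0.12, adjusted p = 0.0394). It did not overlap, but its call was lost in each of the 8 fits without 1 library, with an adjusted p of up to 0.113 without inhibitor library 2. IRS1, an adaptor of the insulin and IGF1 receptors, had 1.16, 2.50, 1.77 and 1.66 CPM in inhibitor libraries, against 4.76, 4.90, 3.54 and 3.73 CPM in ketogenic libraries (log2 -1.25, SE 0.28, adjusted p = 0.00839). IGFBP5, a secreted binding protein of these factors, had 12.8, 23.3, 19.4 and 23.0 CPM in inhibitor libraries, against 43.0, 115, 63.3 and 71.1 CPM in ketogenic libraries (log2 -1.90, SE 0.50, adjusted p = 0.0255). Neither gene overlapped, and the call of IGFBP5 was lost in 5 of the 8 fits without 1 library (adjusted p up to 0.0705 without inhibitor library 3). Against the shared libraries with neither, IGFBP5 was at 0.72 in inhibitor libraries (adjusted p = 0.259) and at 2.62 in ketogenic libraries (adjusted p = 0.00762).

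Of 25 matrix genes FMOD rose and 5 fell, against 6.45% higher and 6.91% lower over all genes. The list's median was -0.36, against -0.01 over all genes. COL5A2, a fibrillar collagen chain, had 304, 318, 258 and 289 CPM in inhibitor libraries, against 553, 379, 529 and 499.9 CPM in ketogenic libraries (log2 -0.75, SE 0.15, adjusted p = 0.00583). COL5A1, its partner chain, had 17.7, 20.4, 16.5 and 16.7 CPM in inhibitor libraries, against 35.0, 20.7, 30.0 and 27.4 CPM in ketogenic libraries (log2 -0.67, SE 0.14, adjusted p = 0.00735). Neither overlapped, though ketogenic library 2 came close to the inhibitor libraries in COL5A1. FRAS1, a basement membrane protein, had 0.164, 0.693, 0.878 and 0.342 CPM in inhibitor libraries, against 2.43, 1.09, 1.62 and 3.88 CPM in ketogenic libraries (SE of the log2 fold change 0.46, adjusted p = 0.00793). COL4A1, a basement membrane collagen, and LOXL2, a collagen cross-linking oxidase, also passed (log2 -0.59 and -1.03), and their calls were lost in 7 and 5 of the 8 fits without 1 library, with adjusted p up to 0.128 and 0.126, both without inhibitor library 3. Fibroblast genes, which share the matrix, summed to 57.1 to 91.3 CPM in inhibitor libraries and 78.3 to 134 CPM in ketogenic libraries, with 0 of 11 higher and ACTA2 and FBLN1 lower in edgeR (0 and 2 in DESeq2, 0 and 3 in limma voom). Their median had the opposite sign, 0.27, with 7 of 11 positive. LUM, a proteoglycan of fibroblasts, had 1.35, 2.79, 1.53 and 1.22 CPM in inhibitor libraries, against 1.30, 0.459, 0.935 and 0.897 CPM in ketogenic libraries (log2 0.94, SE 0.48, adjusted p = 0.209). DCN, decorin, had 4.51, 4.53, 2.76 and 2.001 CPM in inhibitor libraries, against 2.41, 0.903, 3.31 and 2.38 CPM in ketogenic libraries (log2 0.62, SE 0.34, adjusted p = 0.233). Both overlapped and neither passed. COL1A1, a defining fibroblast collagen, had 0.287 to 1.73 CPM in inhibitor libraries and 0.888 to 1.72 CPM in ketogenic libraries. The part of fibroblasts in the matrix values was not tested.

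Of 15 integrin genes 0 rose and ITGA3, ITGB4 and ITGB5 fell in edgeR (0 and 3 in DESeq2, 1 and 6 in limma voom), with a median of -0.31. The call of ITGB4 was lost in 2 of the 8 fits without 1 library (adjusted p up to 0.0514 without ketogenic library 2). ITGA3, a subunit of a laminin receptor, had 163, 152, 123 and 128 CPM in inhibitor libraries, against 292, 363, 276 and 369 CPM in ketogenic libraries (log2 -1.20, SE 0.18, adjusted p = 0.000745). The gap between the groups exceeded the range within the inhibitor group. ITGB5 passed narrowly (log2 -0.43, SE 0.14, adjusted p = 0.0492) and was lost in each of the 8 fits without 1 library, with an adjusted p of up to 0.131 without inhibitor library 3. TGFBI, a secreted adhesion protein counted here among markers of dedifferentiated melanoma, had 114, 177, 110 and 137 CPM in inhibitor libraries, against 262, 449, 242 and 402 CPM in ketogenic libraries (log2 -1.33, SE 0.27, adjusted p = 0.00548). ZEB1, a repressor of epithelial genes from the same list, had 49.7, 39.0, 40.9 and 41.0 CPM in inhibitor libraries, against 66.6, 65.2, 67.8 and 88.1 CPM in ketogenic libraries (log2 -0.75, SE 0.15, adjusted p = 0.00427). The groups did not overlap in either gene. Of the 19 tested genes of that list JUN rose and ZEB1, TGFBI, F2RL1 and CYR61 fell. The calls of F2RL1 and CYR61 were lost in 6 and 5 of the 8 fits without 1 library, with adjusted p up to 0.0793 without ketogenic library 2 and up to 0.116 without ketogenic library 1.

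Of 15 melanocyte genes BCL2A1, SLC24A5 and PAX3 rose and 0 fell, with a median of 0.29, which ran from 0.15 without ketogenic library 3 to 0.54 without ketogenic library 4. PMEL, a structural protein of pigment organelles, had a negative value and did not pass, with 1.04, 1.42, 1.56 and 1.19 CPM in inhibitor libraries, against 1.79, 1.59, 1.81 and 5.07 CPM in ketogenic libraries (log2 -0.97, SE 0.41, unadjusted p = 0.0304, adjusted p = 0.127). Its groups did not overlap, and ketogenic library 4 stood alone. BCL2A1, a survival protein of the BCL2 family, had 33.9, 36.1, 56.3 and 41.7 CPM in inhibitor libraries, against 19.8, 18.9, 23.2 and 20.4 CPM in ketogenic libraries (log2 1.03, SE 0.18, adjusted p = 0.00195). SLC24A5, an exchanger of the pigment organelle, had 2.97, 0.710, 4.76 and 0.960 CPM in inhibitor libraries, against 0.0773, 0, 0.175 and 0.291 CPM in ketogenic libraries (log2 4.20, SE 0.93, adjusted p = 0.0099). Both were apart by group, although SLC24A5 varied several-fold within the inhibitor group. PAX3, a lineage transcription factor, passed narrowly (log2 0.33, SE 0.11, adjusted p = 0.0485) and was lost in 7 of the 8 fits without 1 library (adjusted p up to 0.132 without ketogenic library 3). Of the 15 BCL2 family genes 0 passed in edgeR (1 at an unadjusted p under 0.05, 0 in DESeq2, 2 in limma voom and 1 with only the 8 libraries).

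**Figure D4:**
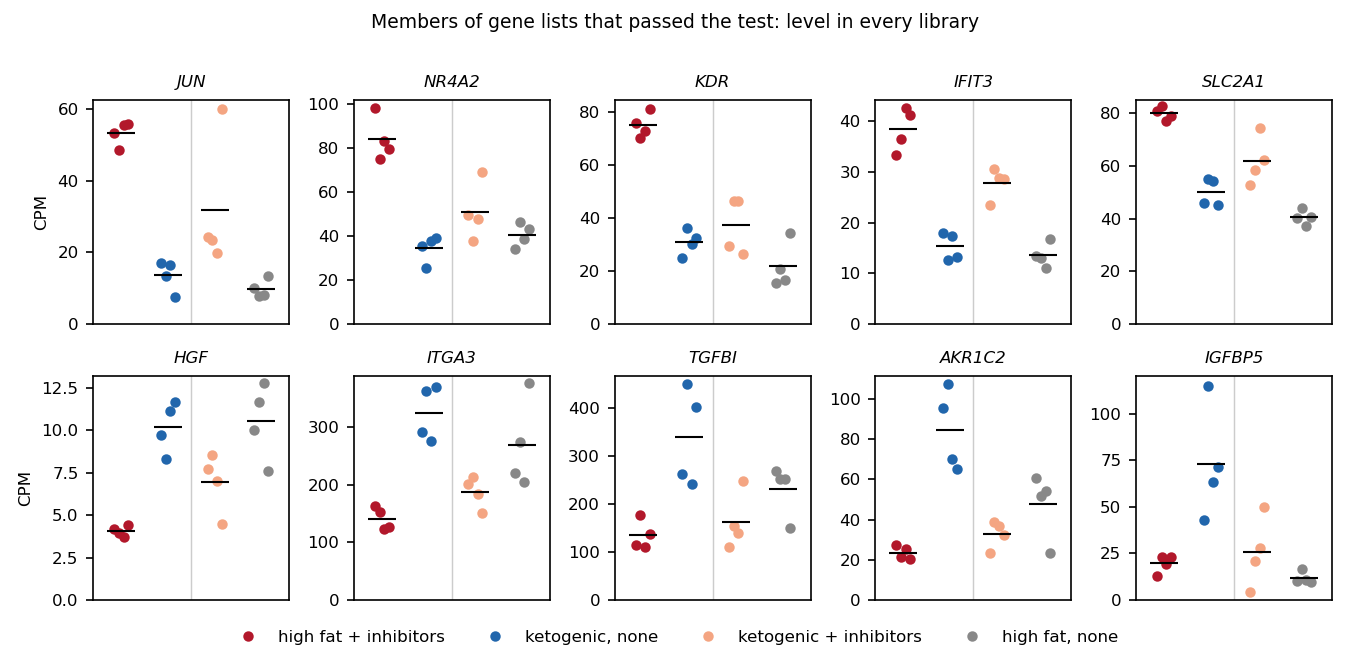
Level in CPM (linear axes from 0, a scale of its own in each panel) of 10 members of the gene lists that passed the test, chosen after their values were seen. Points are libraries and bars are means of 4; JUN, NR4A2, KDR, IFIT3 and SLC2A1 are higher in inhibitor libraries than in ketogenic ones, and HGF, ITGA3, TGFBI, AKR1C2 and IGFBP5 are lower, with no overlap.

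Of 21 glycolysis genes SLC2A1 rose and PFKFB4 and ALDOC fell, where 13.4% of all genes passed in either direction. SLC2A1, the glucose transporter GLUT1, had 80.8, 82.9, 77.2 and 79.0 CPM in inhibitor libraries, against 46.0, 55.1, 54.6 and 45.3 CPM in ketogenic libraries (log2 0.67, SE 0.10, adjusted p = 0.00109). PFKFB4, which makes the activator of phosphofructokinase, had 142, 137, 168 and 165 CPM in inhibitor libraries, against 232, 272, 276 and 282 CPM in ketogenic libraries (log2 -0.79, SE 0.17, adjusted p = 0.00787). In both genes the gap between the groups exceeded the range within either group. ALDOC, an aldolase isoform, had 21.1, 16.8, 12.3 and 13.9 CPM in inhibitor libraries, against 28.3, 29.4, 29.3 and 37.7 CPM in ketogenic libraries (log2 -0.96, SE 0.22, adjusted p = 0.0109). Exons of SLC2A1 overlap those of AC099795.1 and SLC2A1-AS1, whose reads may not be told apart from it.

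Of 9 tested ketone body genes OXCT1 rose and 0 fell in edgeR (1 and 0 in DESeq2, 2 and 1 in limma voom). OXCT1, which activates ketone bodies for oxidation, had 61.4, 61.8, 79.0 and 70.9 CPM in inhibitor libraries, against 46.9, 46.2, 54.2 and 40.1 CPM in ketogenic libraries (log2 0.54, SE 0.14, adjusted p = 0.0159). Its groups did not overlap, and the call was lost without inhibitor library 3 and without ketogenic library 4 (adjusted p = 0.0623). BDH1, the ketone body dehydrogenase, had 12.2, 12.3, 12.0 and 12.2 CPM in inhibitor libraries, against 11.1, 8.79, 9.60 and 9.07 CPM in ketogenic libraries, and did not pass (log2 0.33, SE 0.14, adjusted p = 0.121). Set against neither, OXCT1 was at 0.84 in inhibitor libraries (adjusted p = 0.000243) and at 0.30 in ketogenic libraries (adjusted p = 0.150).

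Of 26 genes of fatty acid oxidation 0 rose and CPT1C, ECI1, PPARGC1A and ACADS fell in edgeR. At an unadjusted p under 0.05, which 29% of all genes reached, 5 were higher and 10 lower. DESeq2 called 2 higher and 4 lower, limma voom 5 higher and 10 lower, and edgeR without inhibitor library 1 called 3 higher and 1 lower. CPT1C, the neural form of carnitine palmitoyltransferase, had 6.73, 4.90, 3.32 and 3.29 CPM in inhibitor libraries, against 10.4, 7.21, 8.36 and 8.97 CPM in ketogenic libraries (log2 -0.94, SE 0.25, adjusted p = 0.0237). PPARGC1A, a coactivator of mitochondrial genes, had 0, 0.220, 0.0958 and 0.407 CPM in inhibitor libraries, against 0.634, 2.71, 0.253 and 1.07 CPM in ketogenic libraries (log2 -2.67, SE 0.80, adjusted p = 0.0368). The groups overlapped in PPARGC1A and not in CPT1C. The calls of CPT1C and PPARGC1A were lost in 4 and 5 of the 8 fits without 1 library, with adjusted p up to 0.0804 without inhibitor library 4 and up to 0.144 without ketogenic library 2. Those of ECI1 and ACADS were lost in 6 each, with adjusted p up to 0.113 and 0.109 without ketogenic library 4. Of 20 citric acid cycle genes 0 rose and IDH2 and PC fell in edgeR (0 and 2 in DESeq2, 2 and 7 in limma voom). In edgeR 6.45% of all genes were higher and 6.91% lower. PC, pyruvate carboxylase (log2 -0.39, SE 0.12, adjusted p = 0.0408), was lost in 7 of the 8 fits without 1 library, with an adjusted p of up to 0.133 without inhibitor library 4. IDH2, the mitochondrial isocitrate dehydrogenase, had 33.4, 37.9, 26.9 and 28.4 CPM in inhibitor libraries, against 71.6, 46.6, 55.8 and 54.0 CPM in ketogenic libraries (log2 -0.85, SE 0.22, adjusted p = 0.0192). It did not overlap, and was lost in 3 of the 8 fits without 1 library (adjusted p up to 0.0654 without inhibitor library 3). In edgeR 0 of 26 nuclear genes of the respiratory chain rose (1 in DESeq2 and 1 in limma voom), and UQCRC2, a core subunit of complex III, fell (log2 -0.63, SE 0.12, adjusted p = 0.00379).

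In lipid handling, MGLL, the monoacylglycerol lipase, had 153, 127, 105 and 106 CPM in inhibitor libraries, against 75.8, 32.8, 70.3 and 46.1 CPM in ketogenic libraries (log2 1.13, SE 0.24, adjusted p = 0.00713). DGAT2, which makes triacylglycerol, had 4.38, 3.48, 3.81 and 3.82 CPM in inhibitor libraries, against 7.90, 8.11, 9.29 and 8.39 CPM in ketogenic libraries (log2 -1.12, SE 0.21, adjusted p = 0.00326). Both were apart by group, and of the 18 tested genes of lipid uptake and storage 3 rose and 2 fell. SCD5, a fatty acid desaturase, fell (log2 -0.95, SE 0.21, adjusted p = 0.00878), and SREBF1, the transcription factor of lipid synthesis, rose (log2 0.50, SE 0.13, adjusted p = 0.0222), with 1 of 14 fatty acid synthesis genes higher and 2 lower. SREBF1 was lost in 4 of the 8 fits without 1 library (adjusted p up to 0.0815 without ketogenic library 4). SC5D, a desaturase of cholesterol synthesis, rose (log2 0.34, SE 0.09, adjusted p = 0.0202). It was lost in 4 of those 8 fits, with an adjusted p of up to 0.0623 without ketogenic library 4.

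Of 15 hypoxia genes ADM, EGLN1 and NDRG1 rose and P4HA1, P4HA2 and CA9 fell (6.45% and 6.91% over all genes). ADM, the vasodilator peptide adrenomedullin, had 9.97, 7.999, 9.10 and 7.70 CPM in inhibitor libraries, against 3.85, 4.45, 4.36 and 4.05 CPM in ketogenic libraries (log2 1.06, SE 0.21, adjusted p = 0.00491). P4HA1, a collagen prolyl hydroxylase, had 48.7, 56.9, 56.7 and 55.6 CPM in inhibitor libraries, against 81.2, 83.4, 88.6 and 83.0 CPM in ketogenic libraries (log2 -0.63, SE 0.13, adjusted p = 0.00649). The groups did not overlap in ADM or P4HA1. CA9, carbonic anhydrase IX, was low and uneven, with 0, 0.0507, 0 and 0.0488 CPM in inhibitor libraries, against 0.0309, 1.26, 0.779 and 4.78 CPM in ketogenic libraries (log2 -5.96, SE 1.88, adjusted p = 0.0488). It overlapped and was lost in 7 of the 8 fits without 1 library (adjusted p up to 0.142 without ketogenic library 4). EGLN1, an oxygen-sensing hydroxylase, was lost without ketogenic library 4 (adjusted p = 0.0548), and NDRG1, a stress-responsive protein, was lost in 6 of the 8 fits (up to 0.0774 without ketogenic library 1).

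Of 17 targets of NRF2, the regulator of the antioxidant response, HMOX1, SRXN1 and GCLM rose and the aldo-keto reductases AKR1C1, AKR1C2 and AKR1C3 fell. Over all genes 6.45% were higher and 6.91% lower. AKR1C2 had 27.3, 21.5, 25.2 and 20.3 CPM in inhibitor libraries, against 95.4, 107, 70.1 and 65.1 CPM in ketogenic libraries (log2 -1.84, SE 0.25, adjusted p = 0.000621). AKR1C1 averaged 12.7 CPM in inhibitor libraries and 33.9 CPM in ketogenic libraries (log2 -1.42), and AKR1C3 averaged 9.02 CPM in inhibitor libraries and 20.8 CPM in ketogenic libraries (log2 -1.20). These genes are near-identical paralogs, so how reads were split among them is uncertain. HMOX1, haem oxygenase 1, had 11.3, 12.1, 10.8 and 14.2 CPM in inhibitor libraries, against 7.83, 8.48, 5.55 and 4.49 CPM in ketogenic libraries (log2 0.87, SE 0.21, adjusted p = 0.0149). It did not overlap, and was lost in 2 of the 8 fits without 1 library (adjusted p up to 0.0539 without ketogenic library 4). GCLM, a subunit of the enzyme that starts glutathione synthesis, was lost in 6 of them (up to 0.143 without inhibitor library 4).

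Of 20 interferon-stimulated genes IFIT3, IFIT2, MX2 and MX1 rose and OAS1 fell (6.45% and 6.91% over all genes), and the median was 0.05. IFIT3, an antiviral protein that binds RNA complexes, had 33.4, 36.5, 42.6 and 41.3 CPM in inhibitor libraries, against 17.9, 12.7, 17.4 and 13.3 CPM in ketogenic libraries (log2 1.33, SE 0.15, adjusted p = 0.00011). MX1, an antiviral GTPase, had 13.5, 12.2, 17.3 and 18.7 CPM in inhibitor libraries, against 7.61, 5.91, 7.71 and 7.69 CPM in ketogenic libraries (log2 1.09, SE 0.25, adjusted p = 0.0107). OAS1, a sensor of double-stranded RNA, had 6.002, 7.88, 7.07 and 6.44 CPM in inhibitor libraries, against 10.8, 13.0, 8.98 and 11.3 CPM in ketogenic libraries (log2 -0.69, SE 0.14, adjusted p = 0.00588). None of these genes overlapped between the groups, and OAS1 went against the others. Of 14 heat shock genes 0 rose and HSPB1, a small chaperone, fell (log2 -0.54, SE 0.13, adjusted p = 0.0158). HSPB1 was lost without inhibitor library 3 (adjusted p = 0.0510). Of the genes that drive and brake entry into the cell cycle, CDKN1B, the inhibitor p27, rose (log2 0.44, SE 0.09, adjusted p = 0.00583) and CDK6, a kinase partner of cyclin D, fell (log2 -0.48, SE 0.10, adjusted p = 0.00477).

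**Figure D5:**
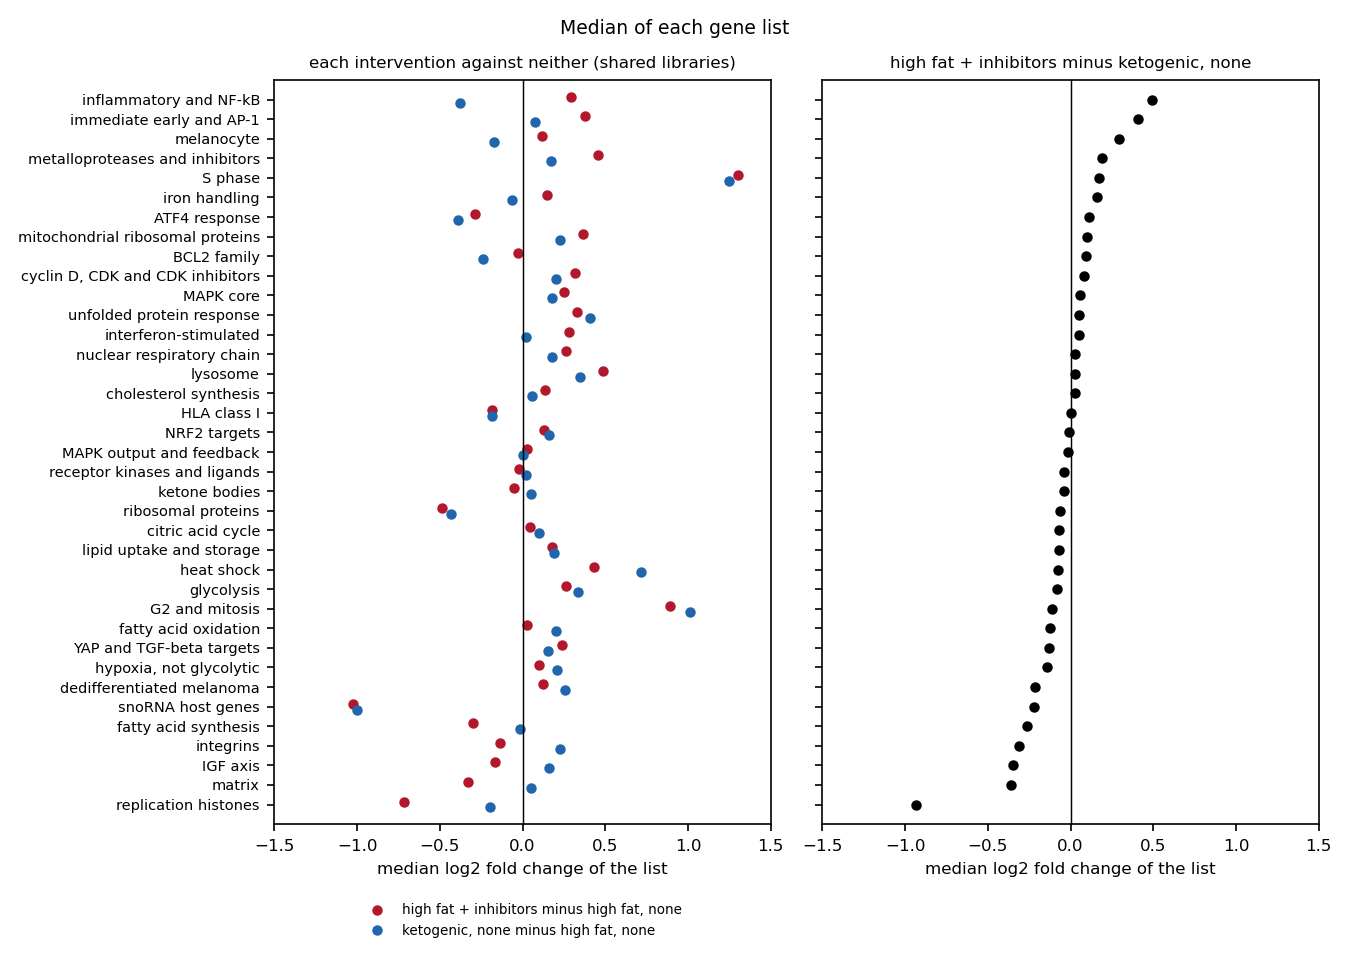
Median log2 fold change of each tumour gene list. On the left each single intervention is set against the libraries with neither, which both comparisons share, and on the right inhibitor libraries are set directly against ketogenic ones; S phase medians of 1.30 and 1.25 on the left stand beside 0.17 on the right, and matrix is at -0.36 on the right. The mitotic medians on the left, 0.89 and 1.01, were 0.58 and 0.69 without library 4 of those with neither.

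Inhibitor and ketogenic libraries were each also set against the libraries with neither intervention; these comparisons share libraries with the direct one and are given side by side only. Inhibitor libraries then had 6771 called genes (42.3%) and ketogenic libraries 2163 (13.5%). Without library 3 with neither, ketogenic libraries had 677 higher and 367 lower genes, against 1280 and 883 with it. FGL2 was at 5.21 in inhibitor libraries (adjusted p = 5.87e-05) and at 0.0037 in ketogenic libraries (adjusted p = 0.997) against neither. LDB2 was at -4.27 in inhibitor libraries (adjusted p = 8.37e-05) and at -0.06 in ketogenic libraries (adjusted p = 0.948). JUN was at 2.43 in inhibitor libraries (adjusted p = 9.39e-05) and at 0.46 in ketogenic libraries (adjusted p = 0.340). Some genes had the larger value on the ketogenic side. CYP24A1 was at 0.58 in inhibitor libraries (adjusted p = 0.546) and at 3.13 in ketogenic libraries (adjusted p = 0.0154, and 0.0512 without library 3 with neither). P4HA1 was at -0.09 in inhibitor libraries (adjusted p = 0.597) and at 0.53 in ketogenic libraries (adjusted p = 0.0154). HSPB1 was above neither in both, at 0.45 in inhibitor libraries (adjusted p = 0.0127) and at 0.99 in ketogenic libraries (adjusted p = 0.00171).

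Libraries with both interventions and with neither share no library with the direct comparison. The estimate of the spread, made from all 16 libraries, is shared. Between libraries with both and with neither 4876 genes (30.5%) passed. Of all genes tested, 2669 (16.7%) were higher with both and 2207 (13.8%) lower. Of the 1032 genes higher in inhibitor than in ketogenic libraries, 526 were also higher with both than with neither, which is 51.0% of these and 19.7% of the 2669, and 10 (0.969%) were lower. Of the 1107 lower genes, 573 were also lower with both, which is 51.8% of these and 26.0% of the 2207, and 15 (1.36%) were higher. The median of the 1032 genes in this second comparison was 0.36 and that of the 1107 was -0.51, against -0.01 over all genes. FGL2 averaged 68.2 ± 27.0 CPM with both and 2.17 ± 0.469 CPM with neither (SD, n = 4 each; log2 4.96, adjusted p = 0.00023). LDB2 averaged 1.06 ± 0.745 CPM with both and 13.5 ± 3.40 CPM with neither (SD, n = 4 each; log2 -3.65, adjusted p = 0.000499). FMOD, TTR, EFS, DNASE2B and EVI2A were likewise higher with both, and NPTX2, DNAH9, MOXD1, NRCAM, TRABD2B, CNTN1 and GPR153 were lower. ESM1 averaged 2.101 ± 1.65 CPM with both and 0.766 ± 0.759 CPM with neither (SD, n = 4 each) and did not pass (log2 1.44, adjusted p = 0.0714). TAC1 (log2 0.94, adjusted p = 0.278), IL1B (log2 1.19, adjusted p = 0.140), CYP24A1 (log2 -0.12, adjusted p = 0.917) and VGF (log2 -0.79, adjusted p = 0.161) did not pass either. In VGF 1 library with neither reached 244 CPM, the highest of all 16.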

How the data were processed

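Poly-A RNA was sequenced from 16 libraries in 4 groups of 4, taken from the labels. The deposited table holds RSEM expected counts (estimated counts, not scaled for depth) of 26475 gene symbols, of which 13.0% of values were not whole; they were rounded. Bowtie2 2.1.0, RSEM 1.2.15 and hg38 are named in the submitters' processing notes, without role or order. Annotation, strandedness of counting and whether mouse reads were removed: not given in the sources used here. Reads that RSEM shares out among similar genes move counts between them, and the 21 ribosomal RNA genes take depth from the rest.

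Genes were filtered by filterByExpr (16012 left), scaled by TMM and modelled with edgeR 4.0.16 under R 4.3.3, all libraries in a robust quasi-likelihood model of group means, so that the 8 other libraries share in the estimate of the spread (common biological coefficient of variation 0.228). P-values were adjusted by Benjamini-Hochberg over all genes, at 0.05, without a fold minimum. CPM values are on TMM-scaled library sizes and are not per length. The 4 libraries per group limit the precision, and the intervals (95%) cover the spread between libraries. On simulated counts (15840 genes) the test recovered 61.0% of 2-fold and 26.5% of 1.5-fold changes and called 2 unchanged genes; shifts of many genes together were not simulated.

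The members and the 45 gene lists (790 entries, 789 in the table, 718 tested) were chosen with earlier results of these data known, so a list's direction is no independent support. The text names the 10 highest and 10 lowest log2 fold changes among called genes whose groups did not overlap and whose higher group averaged at least 5 CPM, ribosomal RNA genes aside, 2 members of each core list by smallest p, the inhibitors' targets, and the most abundant member of each list of other cells. The rule took 58 genes, of which a selection is described and some genes are not reported here. The other genes named were chosen after their values were seen. Coordinates are 1-based GENCODE 29 positions on hg38, and exon overlaps are from that annotation; ESM1, EFS, EVI2A, LDB2, DNAH9, TRABD2B, PFKFB4, SLC24A5, SREBF1, CA9, LOXL2, IFIT2, OXCT1, IGFBP5, ZEB1, DUSP6, ETV4, DGAT2, P4HA1 and ALDOC are among those whose exons overlap another gene's, so their reads may not be told apart. Alternatives were DESeq2 1.42.0, limma 3.58.1 voom with quality weights, RLE factors, library size alone, ribosomal RNA genes removed, other filters, only the 8 libraries, a replicate block, the ribosomal RNA share as a covariate, a 1.5-fold minimum and each library left out. Inhibitor library 1 and ketogenic library 4 were also left out together, and each library with neither was left out of the comparisons against it; both were chosen after seeing the data.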

Additional observations from a re-analysis of the deposited data

Results flagged for a closer look

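In groups of 4 libraries, a library was picked out when its gap to the nearest other, divided by the group's range, exceeded Dixon's 95% critical value. Of 248 groups tested 18 were picked out, and chance gives about 1 in 20. Ketogenic library 4 was picked out 7 times and inhibitor library 1 5 times. Inhibitor library 1 held 52.0 M estimated counts (others 58.1 to 59.2 M) and 16648 genes with a count (others 18089 to 18245). It was highest in FMOD at 7.95 CPM and in DUSP6 at 510.1 CPM, and lowest in P4HA1 at 48.7 CPM. Ketogenic library 4 was highest in DNAH9 at 36.2 CPM, GPR153 at 284 CPM, ZEB1 at 88.1 CPM, ALDOC at 37.7 CPM, PMEL at 5.07 CPM and BRAF at 17.1 CPM, and lowest in CCNE1 at 10.9 CPM.

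Ketogenic library 2 was highest in NRCAM at 11.5 CPM and HSPB1 at 289 CPM, and lowest in FBLN1 at 27.0 CPM and MX1 at 5.91 CPM. Inhibitor library 3 was lowest in NRG1 at 0.335 CPM, and inhibitor library 4 in RPS2 at 1404 CPM. In BRAF the ketogenic libraries differed by little in all (16.3 to 17.1 CPM). FMOD, DNAH9, GPR153, NRCAM and ZEB1 stayed called without the library named.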

How the results depend on the processing

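Of 89 called genes named, 54 were called under all 10 settings that kept every library and set no fold minimum; NRG1, PPARGC1A and CA9 were not tested in all of them. Of the 89, 32 were lost with library size alone, 19 with ribosomal RNA share in the model, 68 with a 1.5-fold minimum and 44 with inhibitor library 1 and ketogenic library 4 left out together. Of the 20 genes at the ends 17 stayed called in each of the 8 fits without 1 library. No called gene of the direct comparison changed sign under any setting run. Against 1032 higher and 1107 lower, the counts were 515 and 266 with library size alone, 1970 and 1879 with only the 8 libraries, 33 and 48 with a 1.5-fold minimum, 2767 and 2782 with limma voom and quality weights, and 352 and 355 with both libraries left out (chosen after seeing the data). Without 1 library they ran from 480 to 859 higher and from 489 to 974 lower, with 540 and 547 without inhibitor library 3, 507 and 539 without inhibitor library 4, 612 and 710 without ketogenic library 1, and 480 and 489 without ketogenic library 4. For both interventions against neither they ran from 1948 to 3098 higher and from 1436 to 2791 lower, 1436 without library 3 with neither. DESeq2 gave 1345 and 1539 for the direct comparison.

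Genes below the threshold whose sign turned were MAP2K2 (0.073 with library size alone, 0.0061 with both libraries left out, -0.054 to 0.0012 without 1 library), SRGN (-0.0019 with a 1 CPM filter, -0.020 with the replicate block, -0.16 with both left out, -0.22 with limma voom, -0.12 to 0.16 without 1 library), E2F1 (-0.11 with both left out, -0.12 to 0.20 without 1 library) and CDK1 (-0.068 to 0.13 without 1 library). The cause was not tested. With the replicate number as a block the counts were 1020 and 1093 for the direct comparison and 2610 and 2257 for both against neither. In the direct comparison same-numbered libraries did not deviate together (r from -0.15 to 0.0029, 0 of 4 best with its own number). For both against neither r was 0.03 to 0.19, and 3 of 4 were best with their own number. With so few libraries it is not settled whether the numbers pair them. Of the calls named, the block ended those of CYP24A1, CCNE1, GCLM and PAX3. The 4 libraries per group limit what can be seen of small changes, and the ribosomal RNA share differed by -0.40 on the log2 scale (-0.59 to -0.21 without 1 library).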

Other observations

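Of 12 tested genes of iron handling SLC39A14 and STEAP3 rose and 0 fell in edgeR, with a median of 0.16. DESeq2 called 4 higher and 0 lower, and limma voom 5 and 1. Of 15 metalloproteases and inhibitors MMP14 and ADAMTS1 rose and ADAMTS9 and MMP15 fell. MMP14, a membrane-bound collagenase, had 194, 182, 200.1 and 166 CPM in inhibitor libraries, against 135, 130, 132 and 125 CPM in ketogenic libraries (log2 0.51, SE 0.08, edgeR adjusted p = 0.00128). Its groups did not overlap, and MMP14 stayed called in all 8 fits without 1 library. Replication histone genes, whose transcripts mostly lack a poly-A tail, had a median of -0.93 over 14 tested (median SE 0.91), with HIST1H2BK higher and 0 lower. Without 1 library that median ran from -1.26 to 0.11. Of these genes 8 averaged under 1 CPM. Their sum overlapped, with 31.2 to 45.9 CPM in inhibitor libraries and 22.0 to 46.4 CPM in ketogenic libraries.

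Other cell types gave low values, which as counts of human gene symbols do not measure mouse host cells. Lung epithelial genes summed to 138 to 151 CPM in inhibitor libraries and 130 to 160 CPM in ketogenic libraries, nearly all of it KRT18, with SFTPC and SCGB3A2 at 0 in all 8 libraries. Adipocyte genes summed to 139 to 151 CPM in inhibitor libraries and 133 to 240 CPM in ketogenic libraries, nearly all of it LPL, with FABP4 at 0.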
